A study of Mus musculus with 16 samples.

Results

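The regions described here are the shorter stable islands of H3K27me3 that carry no H3K4me3, 2242 regions of 71865 merged H3K27me3 regions (3.12%) and of 5973 that were touched by every library used (37.5%). They were chosen on the peak lists themselves. Islands of 5 of the 6 H3K27me3 libraries were merged where they overlapped or touched, and a merged region was kept when all 5 libraries had an island in it, when it was narrower than 20000 bp, and when none of the 4 H3K4me3 libraries had a peak in it. The sixth H3K27me3 library, young replicate 1, was not used in the choice. Presence in 5 libraries, width and absence of H3K4me3 are therefore properties of the choice and not results. They are called H3K4me3-free islands below, and the 1387 regions that met every condition except that an H3K4me3 peak touched them are called H3K4me3-bearing islands.

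The data are chromatin immunoprecipitation and sequencing (ChIP-seq) peak lists from hematopoietic stem cells of C57BL/6 mice, with 16 libraries in all. The cells were taken from bone marrow and are labelled SP-KSL-CD150+, a sort that combines exclusion of a dye with surface proteins and enriches long-lived stem cells. Young mice were 4 months old and old mice 24 months old, and the labels name no other difference in genotype or treatment. H3K27me3 and H3K36me3 were each measured in 3 young and 3 old libraries, and H3K4me3 in 2 young and 2 old. Replicate numbers run on from mark to mark, so that H3K27me3 has replicates 1 to 3, H3K36me3 replicates 4 to 6 and H3K4me3 replicates 7 and 8. The labels call the samples technical replicates of numbered biological replicates without saying which came from the same animals, so every p-value measures the spread between these libraries, which may be partly technical. The sample titles carry a further number, 16 to 21, which the labels do not explain. For H3K27me3, young replicate 2 and old replicate 2 share number 18, and young replicate 3 and old replicate 3 share number 20. The labelled cell type could not be checked against marker genes, and no gene is named below, because gene annotation of the files' build, mm9, was not used here.

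H3K27me3 is the trimethylation of lysine 27 on histone H3. It is laid down by Polycomb repressive complex 2 and is bound by other Polycomb proteins that keep genes silent. H3K4me3 marks the promoters of active and poised genes, and in stem cells many silent developmental genes carry both marks at their promoter, a state called bivalent. H3K36me3 is deposited behind elongating RNA polymerase over the bodies of transcribed genes and hinders Polycomb repressive complex 2 on the same nucleosome.

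The lists of the 5 H3K27me3 libraries used held 17752 to 47197 islands over 123 to 179 Mb, with a median island width of 2600 to 6800 bp. The 2 libraries with title number 18 had the fewest and widest islands, 18741 with a median of 5000 bp in young replicate 2 and 17752 with a median of 6800 bp in old replicate 2. The list of young H3K27me3 replicate 1 was of like size, with 46988 islands over 169 Mb and a median width of 3200 bp. It touched 280 of the 2242 H3K4me3-free islands (12.5%), while the 5 libraries used touched all of them by the choice. The share that another library would touch if left out of the choice was not computed. Young H3K36me3 replicate 4 stood apart in list size, with 6399 peaks over 5.90 Mb. The other 5 libraries of that mark held 39362 to 84437 peaks over 41.6 to 138 Mb. Read depth is not given in the sources used here, so no counting error can be attached to a value, and the extent of a list depends on depth as well as on the cells. In these bulk profiles a mark in fewer cells and less mark per cell cannot be told apart.

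The H3K4me3-free islands had a median merged width of 12400 bp, with quartiles of 9600 and 15600 bp and a range of 800 to 19800 bp, and together spanned 28.1 Mb. Most were intermediate in width, with 36 under 5000 bp, 578 from 5000 to 10000 bp, 970 from 10000 to 15000 bp and 658 above that. Just inside the width limit, 23 of them were 19800 bp wide, with a median of 3000 bp (0 to 13000 bp) under all 5 libraries and no such base in 6. Just outside it, 19 stable H3K4me3-free regions were 20000 bp wide, with a median of 2400 bp (0 to 6400 bp) and no such base in 5.

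The libraries agreed that H3K27me3 was present in these regions but agreed little on where within them it lay. Only 15.96% of the joint length (4.48 Mb) was under an island of all 5 libraries, while 23.1% was under an island of 1 library, 23.3% of 2, 20.3% of 3 and 17.3% of 4. The bases common to all 5 libraries came to a median of 1600 bp per region, counting regions without any. They lay in 1 stretch in 1251 regions and in several stretches in 382. In 609 H3K4me3-free islands (27.2%) no base was under an island of every library, although each library had an island somewhere in the region. In the H3K4me3-bearing islands, whose median width was nearly the same at 12000 bp, 34.8% of the length was common to all 5 libraries. The median common length per region was 3800 bp, and 62 regions (4.47%) had no common base. Stable domains of at least 20 kb without H3K4me3, 1458 in number, lay between them with 19.5% of their length in common and no common base in 20.4%. These shares come from the same lists that chose the regions and are given as a description, with no test.

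**Figure D1:**
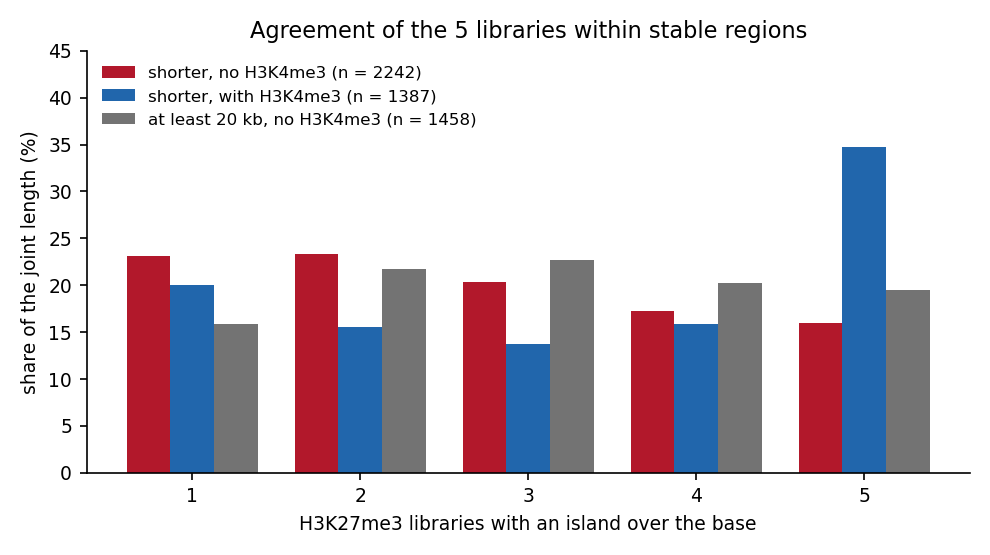
Share of the joint length of each set of regions (vertical axis, %) by the number of the 5 H3K27me3 libraries with an island over the base (horizontal axis). Bars stand for H3K4me3-free short islands, H3K4me3-bearing short islands and H3K4me3-free domains of at least 20 kb. The red bars fall from 23.3% at 2 libraries to 15.96% at 5, while the blue bar at 5 libraries reaches 34.8%.

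From 5000 bp upward, the median length per region under all 5 libraries did not rise with width. It was 1200 bp in regions under 5000 bp and 1600 bp in each of the 3 wider classes. The share of length in common fell across the classes from 32.2% to 21.8, 16.1 and 13.3%. The share of regions without a common base was 8.33, 19.4, 29.6 and 31.5%. Such regions count in the medians, which therefore do not show whether wider islands with a common base held more of it. The merged width thus mostly added bases that some libraries left uncovered. The bounds of the islands showed the same spread. For 1 side of a region, the outermost and innermost bounds among the 5 libraries were a median of 4600 bp apart. In 15 islands (0.669%) all 5 libraries placed both bounds within 1000 bp of each other. These 15 had a median width of 4000 bp and a range of 800 to 13400 bp.

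Pairs of libraries shared 42.8 to 48.1% of the bases that either covered within the H3K4me3-free islands. The same 10 pairs shared 59.4 to 62.3% in the H3K4me3-bearing islands and 55.0 to 61.0% in domains of at least 20 kb, so that the value for the H3K4me3-free islands was the lower of each pair of values with the H3K4me3-bearing set in 10 of 10. The ranges by age overlapped. The young pair shared 46.4%, the 3 old pairs 43.2 to 47.1% and the 6 pairs of mixed age 42.8 to 48.1%. Pairs that held old replicate 2 shared 46.2 to 48.1%, whatever their ages. Among the pairs without it, those of mixed age shared 42.8 to 43.1%. The young pair (46.4%) and the pair of old replicates 1 and 3 (43.2%) lay above them, and this order was not tested.

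Each library covered 49.7 to 69.7% of the joint length. Young replicates 2 and 3 covered 54.8% and 54.7%, and old replicates 1, 2 and 3 covered 49.7, 69.7 and 50.7%. Old replicate 2 was thus above the other 4, and the young values lay inside the range of the old. The median length covered per region was 6200 and 6400 bp in the young libraries and 5800, 8200 and 6000 bp in the old. Old replicate 2 also set 33.4% of the outer bounds of the merged regions, against 17.9 to 22.3% for each of the others.

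The number of separate islands per region separated the libraries by their lists. Young replicate 2 and old replicate 2, both of title number 18, had 1.19 and 1.12 islands per region and split 17.8% and 12.0% of the regions into several islands. Young replicate 3, old replicate 1 and old replicate 3 had 1.57, 1.41 and 1.54 islands per region and split 44.3, 34.2 and 42.1%. The first 2 libraries are those with the fewest and widest islands over the genome, and the part of that in the difference was not tested. A single island in every library was seen in 614 of the 2242 regions (27.4%), against 600 of the 1387 H3K4me3-bearing islands (43.3%).

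Island scores were ranked within each list, because the unit of the deposited score is not stated. The percentile of a region is the share of the library's islands with a score below that of the region's best island. Young replicates 2 and 3 gave the H3K4me3-free islands median percentiles of 59.1 and 81.0, while old replicates 1, 2 and 3 gave 78.4, 61.2 and 82.3. The 2 low values again belonged to title number 18. The H3K4me3-bearing islands had median percentiles of 80.2, 91.3, 91.1, 80.1 and 92.9 in the same order. The H3K4me3-free islands were lower in 5 of 5 libraries, with a mean difference of -14.7 ± 4.96 percentile points (SD of the within-library differences, n = 5). The exact two-sided sign permutation test gave p = 0.0625, the smallest that 5 libraries allow, so the test could not reach 0.05. Among regions of 4000 to 10000 bp in both sets the mean difference was -14.0, and among regions of 10000 to 15000 bp it was -14.7. These classes match the merged width and not the length of single islands. The H3K4me3-bearing islands had longer median covered lengths in 5 of 5 libraries, at 7200, 6800, 7000, 9400 and 7400 bp in the same order. The part of island length in the score difference was not tested.

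**Figure D2:**
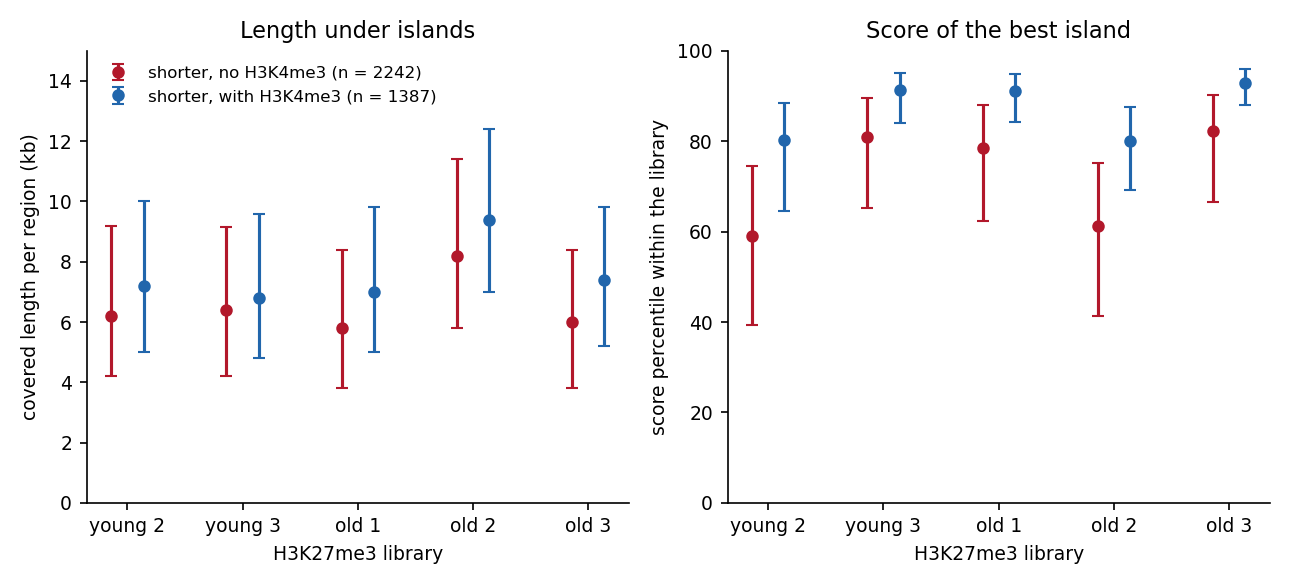
Length under islands per region (left, kb) and percentile of the best island's score within its own library (right) for the 5 H3K27me3 libraries, with points at the median and bars from the lower to the upper quartile over regions. H3K4me3-free islands (red) have median percentiles of 59.1 to 82.3 and H3K4me3-bearing islands (blue) of 80.1 to 92.9, and old replicate 2 has the longest covered length at 8200 bp.

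Some H3K4me3-free islands were well defined in every library. The longest common stretch was 12400 bp, in the region at chr15:78984601-79000200 (mm9), which is 15600 bp wide. Young replicates 2 and 3 covered 12800 and 13200 bp of it, and old replicates 1, 2 and 3 covered 12800, 15400 and 13600 bp. All 5 libraries thus covered most of the region, with a score percentile of 96.2 to 98.3. The next was chr3:87746601-87761400, 14800 bp wide with a common stretch of 11200 bp and covered lengths of 13600, 11200, 11800, 14800 and 11600 bp in the same order of libraries. The nearest H3K4me3 peak to it lay 2.58 kb away, and H3K36me3 peaks of 4 libraries touched it, over 106 to 1292 bp.

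Regions at chr7:19997201-20009800 and chr7:31413001-31425400 had common stretches of 10200 and 10000 bp in widths of 12600 and 12400 bp. They were therefore among the islands on which the libraries differed least. The region at chrX:133625801-133641400 was 15600 bp wide, had a common stretch of 10200 bp, and was covered over 11000, 13200, 10400, 15600 and 12400 bp. At chr12:34601601-34618400 the common stretch was also 10200 bp, and young replicate 1, which missed most of these regions, covered 14000 of its 16800 bp. The other 4 of the 10 islands with the longest common stretch lay on chromosomes 2 (2 regions), 17 and 19.

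The highest scores in the lists fell in 1 H3K4me3-free island. The region at chr17:39975201-39993400, 18200 bp wide, was scored 9590 and 10048 by young replicates 2 and 3, and old replicates 1, 2 and 3 scored it 9174, 9019 and 8545, where the median island score of the lists was 44 to 68. It held the highest score of the whole list in 4 of the 5 libraries, old replicate 3 being the exception. Young replicate 1 had a score of 2325 there. Covered length was 12000, 13800, 14600, 10400 and 13600 bp, and the nearest H3K4me3 peak was 907 kb away. Control libraries were not given in the sources used here, and neither repeats nor copy number were examined. Whether the scores of this region reflect H3K27me3 alone was therefore not tested. Outside the 10 islands with the longest common stretch, the next highest mean percentiles were those of chr2:164787401-164803400, with scores of 338 to 680, and chr11:59097601-59116400, with scores of 365 to 542. H3K4me3 peaks lay only 0.381 and 0.806 kb from these 2 regions.

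H3K4me3-free islands lay on all autosomes and on chromosome X, and none lay on chromosome Y. The most were on chromosomes 7 (200), 11 (195), 9 (189) and 2 (188). Of all stable regions under 20 kb, 61.8% were H3K4me3-free, and the share on single autosomes ran from 49.3% on chromosome 3 to 72.0% on chromosome 5. On chromosome X it was 38.0%, 19 of 50 regions, below every autosome, and this order was not tested.

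The nearest H3K4me3 peak lay at a median of 54.0 kb from the edge of an H3K4me3-free island. The closest was 9 bp away, 75 islands (3.35%) had a peak within 1 kb and 198 (8.83%) within 5 kb. For the H3K4me3-free domains of at least 20 kb the median was 71.8 kb and the share within 5 kb was 4.73%. In the single H3K4me3 libraries the share of islands with a peak within 5 kb was 7.45 and 7.40% for the young (replicates 7 and 8) and 7.67 and 8.43% for the old (replicates 7 and 8). In the old lists, which also held more peaks in all (18675 and 19923, against 16314 and 16258), these shares were slightly higher.

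Long stable H3K27me3 domains lay nearer to the H3K4me3-free islands than to the H3K4me3-bearing islands, although most of the former had none within 5 kb. A stable domain of at least 20 kb lay within 5 kb of 363 H3K4me3-free islands (16.2%) and at a median distance of 76.3 kb. For H3K4me3-bearing islands the share was 4.69% and the median 461 kb. Another H3K4me3-free island lay within 5 kb of 12.0% of the H3K4me3-free islands, at a median distance of 109 kb. A H3K4me3-bearing island lay within 5 kb of 2.41% of them, at a median of 532 kb. The sets differ in number and length, and no random placement was run.

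Around the common stretch H3K27me3 formed a narrow peak. In the 1633 islands that had such a stretch, the share under an island was 100% at its centre in every library used, since the centre was chosen so. Averaged over both sides, it was 60.7 to 79.9% at 2 kb, 23.4 to 38.8% at 5 kb and 15.8 to 21.3% at 10 kb. Old replicate 2 had the highest values at 2 and 5 kb. At 20 kb the share was 18.4 to 24.7%, above the 10 kb value in each of the 5 libraries, and the low point between is partly set by the width limit, which requires a gap on either side. Young replicate 1, not used in the choice, had an island at 4.16% of the centres and 2.39% of the positions at 20 kb.

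**Figure D3:**
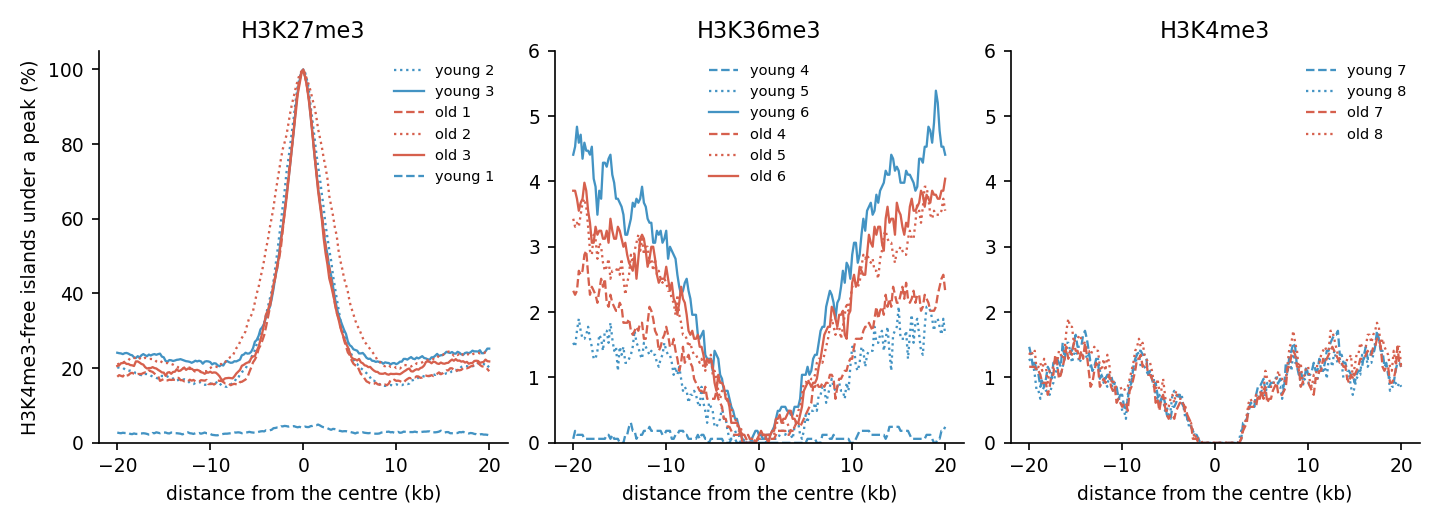
Share of H3K4me3-free islands (vertical axes, %) under a peak of each library, by distance from the centre of the longest stretch under all 5 H3K27me3 libraries (horizontal axes, kb), for 1633 islands with such a stretch. Blue lines are young and red lines old libraries. H3K27me3 drops from 100% to 15.8 to 21.3% at 10 kb, apart from young replicate 1 near the floor. H3K36me3, averaged over both sides, is higher at 20 kb than at the centre in every library. The H3K4me3 panel is empty in the middle because the regions were chosen without that mark.

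H3K36me3, which the choice did not use, was nearly absent from these islands. In young replicates 4, 5 and 6 its peaks touched 0.357, 1.07 and 1.38% of the 2242 regions, and in old replicates 4, 5 and 6 they touched 0.981, 1.38 and 1.25%. The H3K4me3-bearing islands were touched more often, at 1.15, 2.67 and 4.40% in young and 2.24, 3.10 and 3.68% in old libraries. The H3K4me3-free islands were lower in 6 of 6 libraries, at a mean difference of -1.80 ± 0.803 percentage points (SD of the within-library differences, n = 6), with p = 0.0312 in the exact two-sided sign permutation test, the smallest that 6 libraries allow. Leaving out any 1 library left the difference between -2.0 and -1.56, and the exact test then gave p = 0.0625, the smallest for 5 libraries. By length, 0.0160 to 0.163% of the H3K4me3-free islands was under H3K36me3. Domains of at least 20 kb without H3K4me3 were touched in 0.686 to 1.37% of cases. A low share was thus not particular to the short islands.

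Against all stable domains of at least 20 kb, which were covered over 0.0162 to 0.156% of their length, the mean difference in covered share was 0.00906 percentage points (SD 0.0153, n = 6), with p = 0.25 in the same exact test. The difference changed sign between libraries, being lower in 3 of 6. Those domains include 886 that H3K4me3 peaks touched. Against the 1458 domains without H3K4me3, H3K36me3 covered more of the short islands in 5 of 6 libraries, young replicate 4 being the exception, at a mean of 0.104% against 0.0420% of the length. The mean difference was 0.0621 ± 0.0428 percentage points (SD, n = 6), with p = 0.0625 in the exact sign permutation test, a comparison added after seeing the data. Counted as regions touched, the mean difference from all long domains was -0.970 percentage points (p = 0.0312, exact sign permutation test), between islands of a median width of 12400 bp and domains of a median width of 30400 bp. From the domains without H3K4me3 it was 0.0988 percentage points (p = 0.469, exact sign permutation test).

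Over the joint length of the H3K4me3-free islands, H3K36me3 covered less of the common stretches than of the other bases. It covered 0 to 0.0817% of the bases under all 5 H3K27me3 libraries and 0.0191 to 0.184% of the other bases. The 609 islands without a common stretch count only among the other bases. A difference in position within islands can therefore not be told from a difference between islands here. The common stretch was lower in 6 of 6 libraries, with a mean difference of -0.0680 ± 0.0406 percentage points (SD, n = 6) and p = 0.0312 in the exact sign permutation test, and with p = 0.0625 and a difference of -0.0778 to -0.0555 when any 1 library was left out. Around the centre of the stretch, the share of islands under H3K36me3 was 0 to 0.184% in the 6 libraries, and at 20 kb it was 0.153 to 4.41%, higher in each of them. The nearest H3K36me3 peak lay at a median of 88.3 kb, against 30.0 kb for H3K4me3-bearing islands and 133 kb for H3K4me3-free domains of at least 20 kb.

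Across the 6 libraries 59 islands (2.63%) were touched by H3K36me3, 25 of them in 1 library and 22 in at least 3. All 6 libraries touched 2 islands. At chr8:108948001-108961600 H3K36me3 of young replicates 4, 5 and 6 covered 678, 1248 and 3912 bp, and that of old replicates 4, 5 and 6 covered 2273, 2911 and 2356 bp. In the same 13600 bp, H3K27me3 covered 5200 and 1200 bp in young replicates 2 and 3 and 9800, 13600 and 9800 bp in the old libraries. All 3 old H3K27me3 values were above both young ones there, with a log2 change of 2.02 (SE 0.69) and a limma adjusted p of 0.325. At chr6:70855401-70873800 H3K36me3 covered between 7 bp in young replicate 4 and 1683 bp in old replicate 5, of 18400 bp.

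**Figure D4:**
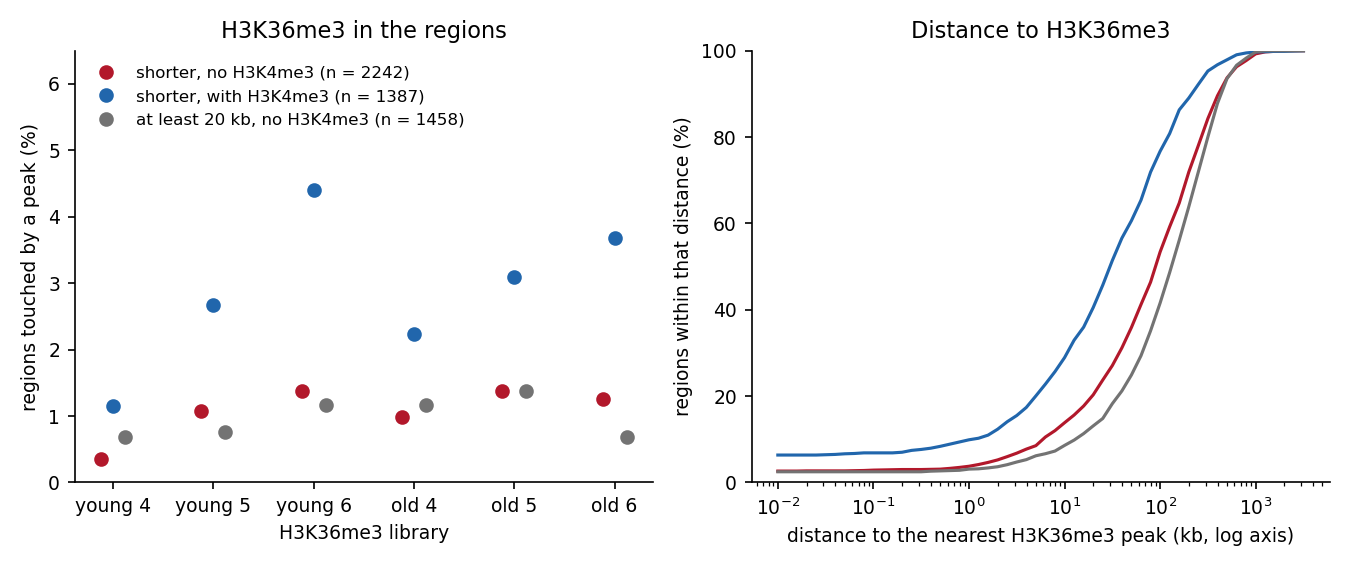
Regions touched by a H3K36me3 peak in each of the 6 libraries (left, %) and the cumulative share of regions within a given distance of the nearest H3K36me3 peak of any library (right, %, with distance in kb on a log axis). H3K4me3-free short islands (red) are touched in 0.357 to 1.38% of cases and H3K4me3-bearing short islands (blue) in 1.15 to 4.40%, and the red curve lies between the blue and the grey.

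Old and young libraries overlapped in H3K36me3 at these islands. The share touched was 1.2 ± 0.204% in old (SD, n = 3) and 0.937 ± 0.526% in young libraries (SD, n = 3), with p = 0.7 in the exact two-sided permutation test, where the smallest possible p is 0.1. Without young replicate 4, the library that stood apart, the difference of 0.268 percentage points became -0.0223. Within title number 16 old minus young was 0.624 and within 18 it was 0.178 percentage points.

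Old and young libraries also overlapped in the H3K27me3 measures taken over all H3K4me3-free islands. The choice had required an island in all 5 libraries, which removed regions without H3K27me3 at one age, and with 3 against 2 libraries no exact test could reach 0.05, so the p-values do not show that the ages are alike. The covered share of their length was 56.7 ± 11.2% in old (SD, n = 3) and 54.7 ± 0.108% in young libraries (SD, n = 2), with p = 1.0 in the exact permutation test, whose smallest possible p is 0.1. Without old replicate 2 the difference of 1.94 percentage points became -4.54. Within title number 18 old minus young was 14.8 and within number 20 it was -3.94 percentage points, so the pairs went opposite ways. Islands per region were 1.36 ± 0.214 in old and 1.38 ± 0.265 in young libraries (p = 0.9, exact permutation test), and old minus young was -0.0682 within number 18 and -0.0245 within number 20. Score percentiles were 74.0 ± 11.2 in old and 70.0 ± 15.5 in young libraries (p = 0.7, exact permutation test). Within title numbers the percentile differences were 2.18 and 1.29 points for numbers 18 and 20.

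In most single islands the covered lengths of the ages overlapped. All 3 old libraries covered more than both young ones in 293 H3K4me3-free islands (13.1%), and less in 217 (9.68%). Among all 26358 regions covered in at least 2 of the 5 libraries the shares were 9.13% and 10.7%, and among all 5973 stable regions they were 14.5% and 10.1%. With 3 against 2 interchangeable libraries, ties aside, a share of 0.1 would fall in each direction. Regions tested needed cover in at least 2 libraries only, so their shares are not like for like. The share of longer islands was below that of stable regions. In the H3K4me3-bearing islands the shares were 14.7% longer and 5.84% shorter. In H3K4me3-free domains of at least 20 kb they were 15.6% and 14.8%. The median log2 change in covered length was 0.04 over the H3K4me3-free islands, which became -0.10 without old replicate 2 and -0.04 when each library was centred, and it was -0.00102 over all regions tested.

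The fit across all regions called none. Limma on log2(bp covered + 200), with Benjamini-Hochberg adjustment over the 26358 regions, gave no region an adjusted p under 0.05, a share of 0%, with a lowest adjusted p of 0.181. Taken at 0.05 without adjustment, it gave 64 longer and 26 shorter H3K4me3-free islands in old libraries (4.01%). Among all regions tested the share was 11%, counting either direction. Regions tested needed cover in at least 2 libraries only, so some could lack cover in every library of an age. The H3K4me3-free islands could not, since the choice required an island in every library used. These shares are therefore not like for like, and the share among all stable regions is not given here. With young replicate 3 left out, the median log2 change was 0.00765 over the H3K4me3-free islands and 0.877 over all regions tested. With young replicate 2 left out, it was 0.0279 and -0.415. These fits rest on 1 young library, which is assumed to vary like the old ones, so their calls are not counted here. No call was made when 1 of the old libraries was left out.

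The islands with the largest age differences among those whose groups did not overlap mostly had a short covered stretch at one age and a long one at the other. At chr9:74664601-74684400 young replicates 2 and 3 covered 1400 and 4400 bp, while old replicates 1, 2 and 3 covered 11800, 18800 and 18000 bp. The log2 difference was 2.57 (SE 0.58), with a limma adjusted p of 0.181. At chr16:34637001-34654800 it was 4200 and 4600 bp in young and 14200, 15200 and 13200 bp in old libraries, a log2 difference of 1.65 (SE 0.31). The old values there lay close together and far above the young.

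Covered length at chr8:10713801-10730000 was 3800 and 3200 bp in young and 14200, 14000 and 11600 bp in old libraries, a log2 difference of 1.86 (SE 0.35). The region at chr11:73949201-73965600 had 2800 and 2800 bp in young and 11000, 14000 and 11400 bp in old libraries. At chr15:80454801-80473800 the values were 4800 and 5800 bp against 12600, 16600 and 15800 bp. The adjusted p was 0.181 for each of these 5 regions. They were picked for this difference, so the values describe them and do not test it.

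In the other direction, covered length at chr10:78753201-78772400 was 15400 and 16000 bp in young and 3600, 5400 and 4400 bp in old libraries, a log2 difference of -1.79 (SE 0.38). At chr15:101730801-101749200 it was 13000 and 17600 bp in young and 2400, 5600 and 3600 bp in old libraries, a log2 difference of -1.99 (SE 0.51). At chr1:169054001-169071400 it was 17000 and 14000 bp against 5800, 5200 and 3400 bp. In these 3 regions every old library covered less than 6000 bp. The region at chr12:87848001-87865000 had 16200 and 14000 bp in young and 6000, 5600 and 4600 bp in old libraries. At chr9:98125201-98144800 old replicate 2 was at 15000 bp while old replicates 1 and 3 were at 5400 and 2000 bp, against 17200 and 16600 bp in young. The limma adjusted p was 0.512 for this last region and 0.181 for the other 4.

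**Figure D5:**
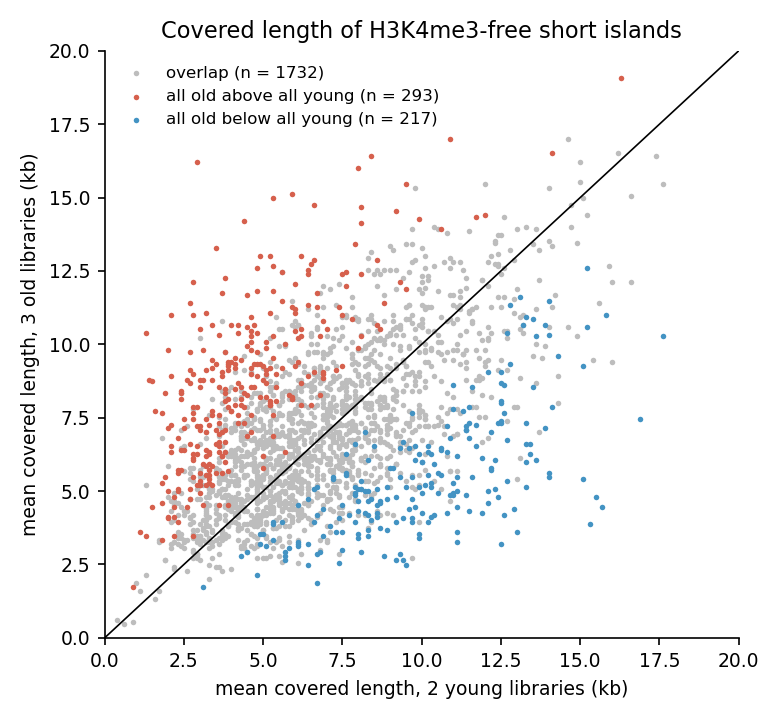
Mean covered length of each H3K4me3-free short island in the 3 old libraries (vertical axis, kb) against that in the 2 young libraries (horizontal axis, kb), with the line of equality. Red points are the 293 islands where every old library lies above both young ones and blue points the 217 where every old library lies below. The cloud lies around the line, with a median log2 change of 0.04.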

How the data were processed

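Peak lists of 16 libraries were used as the authors deposited them, 1 list per sample. The submitters' processing notes name mm9 as the build and SICER, MACS and CASAVA 1.4 as tools. Thresholds, control libraries and depth were not given in the sources used here. Each score the authors deposited has no stated unit, so it served for ranks within a list and for raw values in named regions. Samples were grouped by mark and age from their titles.

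H3K27me3 island ends were raised by 1 bp to fit their 200 bp grid, and overlaps of at least 1 bp counted. Lengths were tested with limma 3.58.1 in R 4.3.3, with trend and empirical Bayes moderation, on log2(bp + 200), over regions covered in at least 2 libraries, with a threshold of 0.05. Library values were compared by exact permutation tests in Python 3.11.15 (numpy 2.4.6, pandas 2.3.3). The steps were tested on simulated data.

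Regions named in the text were those with the longest common stretch, the highest percentiles, the largest age differences in either direction among groups that did not overlap, the most H3K36me3 libraries, the most cover by young replicate 1, and those next to the width limit. The set of regions, the comparison sets and these rules were chosen with earlier results of these data known. Gene lists and cell type markers drawn up for an annotation of mm9 were not used, and no sequence was read, since the reference tables at hand were of another build. Alternatives covered other replicates, thresholds, widths, filters, pseudocounts and the replicate block. The runs on H3K36me3 in the common stretch with a library left out or a stricter threshold, percentiles at 10000 to 15000 bp, and the comparison with long domains without H3K4me3, were chosen after seeing the data.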

Additional observations from a re-analysis of the deposited data

Results flagged for a closer look

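Young H3K27me3 replicate 1, which took no part in the choice of the regions, had an island in 12.5% of the H3K4me3-free islands (280 of 2242). The 95% Wilson interval of 11.2 to 13.9% covers counting error only. The share that a list of its size, 46988 islands over 169 Mb, would touch by random placement was not computed. Islands of this library touched 13.0% of the H3K4me3-bearing islands, 22.9% of domains of at least 20 kb and 10.6% of all other merged regions. Those other regions are narrower, with a median width of 2800 bp. By length it covered 3.68% of the H3K4me3-free islands, 4.04% of the H3K4me3-bearing islands, 3.69% of the long domains and 4.90% of the other regions. Its longest covers among H3K4me3-free islands were 14000 bp each at chr12:34601601-34618400 and chr9:84662201-84681400, 12200 bp at chr1:45550001-45565000, 11000 bp at chr18:31602401-31621600 and 10800 bp at chr11:121790401-121805800.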

How the results depend on the processing

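The number of H3K4me3-free islands followed the libraries and limits used. It was 2741 to 3895 with 1 library left out of the rule, 266 when young replicate 1 was required too, 1040 with islands above each list's median score, 320 with at least 50% of the width covered in each library, and 614 below 10000 bp. It stayed within 1.5 times the value of 2242 when peaks within 1000 bp also barred a region (2167) and when H3K4me3 in at least 2 libraries was required to bar it (2378). Of the age differences, for which the smallest possible p was 0.1, so that none could pass 0.05, the covered share was -4.54 to 5.45 percentage points, islands per region -0.206 to 0.168 and the score percentile -7.02 to 14.9 points with 1 library left out. With young replicate 1 added, these differences were 18.97 percentage points, 0.391 islands and 9.12 percentile points, and the median log2 change in length was 1.63. The choice required an island in every other H3K27me3 library and not in this one, so these values are not independent of the choice. Islands per region also turned to 0.0365 with the stricter threshold. The age difference in H3K36me3 was -0.0223 to 0.491 with 1 library left out and -0.0595 with the stricter threshold. The median log2 change in length ran from -0.10 to 0.13 with 1 library left out and was -0.043 with centred libraries, and limma called 0 to 28 H3K4me3-free islands longer in old. With 1 library left out, the H3K36me3 difference from H3K4me3-bearing islands was -2.0 to -1.56 and that between the common stretch and the rest -0.0778 to -0.0555, each with an exact p of 0.0625. Against long domains the H3K36me3 difference was 0.0621 for those without H3K4me3 alone and reversed to -0.970 when regions touched were counted. The cause of these changes was not tested, beyond the smaller number of libraries in each left-out run.

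With the replicate block, old minus young over the pairs numbered 2 and 3 was 5.45 percentage points in covered share, the limma fit called 0 H3K4me3-free islands, and no call changed. Same-numbered libraries here also share title numbers 18 and 20, and those of number 18 were alike in list size, islands per region and percentile. Deviations from the age means correlated at 0.03 and 0.01 over the 2242 islands, but with 2 young libraries these deviations mirror each other, so whether the numbers pair the samples was not settled.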
